A study of Homo sapiens with 9 samples.

Results

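The forkhead genes encode transcription factors that share a DNA-binding domain, the forkhead or winged helix, and are named FOX followed by a letter for the subclass and a number. One helix of the domain lies in the major groove of DNA and reads a short core sequence, while the parts outside the domain differ between subclasses and set partners and regulation. In the mesenchyme of the liver, gut and lung, FOXF1, FOXF2 and FOXL1 are known regulators of development, FOXO factors are held out of the nucleus by AKT phosphorylation, and FOXM1 drives the genes of mitosis. FOXS1 is known from sensory neurons and from pericytes, the contractile cells that wrap small vessels.

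The genes described here were chosen by symbol, as every listed gene whose name is FOX, a letter from A to S and a number, with or without a final A or B. This gave 38 of the 20777 genes listed, of which 26 passed the filter on low counts and were tested among 13384 genes. The family was picked with the rise of FOXS1 in TGF-β-treated cells already known, so the values of FOXS1 against control are given as a description without a test.

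RNA was sequenced from LX-2, an immortalised human hepatic stellate cell line, so that all values come from 1 line. Control cells (C, n = 3) have no treatment label, TGF-β cells (T, n = 3) were given the profibrotic cytokine TGF-β and are labelled Day 1, and TGF-β + uridine cells (U, n = 3) were given TGF-β and the nucleoside uridine and are also labelled Day 1. The study's methods describe TGF-β first and a later change to medium with uridine, with a time for TGF-β that is not the labelled one, and the labels do not give this order. All 9 libraries carry the genotype label "wide type", and the labels give no dose. The labels do not say whether the 3 libraries of a group came from separate cultures, so the p-values measure the spread between these libraries, which may be technical.

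Each library held 40539751 to 41467124 reads on genes, and 16157 to 17108 genes had reads. The control libraries differed from each other in how reads were spread over GC-rich and GC-poor genes: the slope of a gene's log2 deviation on its GC fraction was 5.60, -0.72 and -4.05 in C1, C2 and C3, while it ran from -0.33 to 0.53 with TGF-β and from -2.65 to 2.25 with TGF-β + uridine. Of 18 stellate cell markers 16 were listed, and 7 had a mean above 1 FPKM (reads scaled by gene length and library total) in every group, with a summed level of 708 to 804 FPKM in control, 1150 to 1170 in TGF-β and 1060 to 1070 in TGF-β + uridine libraries. The defining stellate genes LRAT and TCF21 were not listed, and COL1A2, LUM, RELN, HAND2 and GFAP were among the lowest of the list. Of 13 epithelial and hepatocyte markers 11 were listed, with ALB and TTR not listed and a summed level of 4300 to 6100, 5290 to 5450 and 4370 to 4970 FPKM, nearly all from keratins. Endothelial and leukocyte markers, with 7 of 10 listed, summed to 17.3 to 18.6, 21.8 to 23.1 and 18.7 to 22.6 FPKM, and KDR, PTPRC and CD3E were not listed. Nearly all of this sum was CD68, at 16.8 to 18.1, 21.4 to 22.7 and 18.2 to 22.2 FPKM.

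The family is defined by one stretch of sequence, so the coding bases around the recognition helix are shown first, for FOXS1 and 4 other genes whose TGF-β difference from control had an unadjusted p under 0.05. Each run holds 90 bases, from 30 before the first codon of the conserved core to 60 after it, taken from GENCODE transcripts on GRCh38 through their coding frames. Capitals mark the 35 positions that hold the same base in all 5 genes shown.
FOXS1: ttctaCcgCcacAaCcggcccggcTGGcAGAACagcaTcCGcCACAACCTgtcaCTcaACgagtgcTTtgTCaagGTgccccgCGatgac
FOXL1: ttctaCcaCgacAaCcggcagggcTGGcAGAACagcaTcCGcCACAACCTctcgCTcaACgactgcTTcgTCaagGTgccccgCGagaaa
FOXP4: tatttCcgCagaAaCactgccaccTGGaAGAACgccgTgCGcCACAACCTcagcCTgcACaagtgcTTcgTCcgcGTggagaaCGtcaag
FOXO4: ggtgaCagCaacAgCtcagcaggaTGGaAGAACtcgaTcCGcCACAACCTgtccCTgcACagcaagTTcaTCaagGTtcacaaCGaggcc
FOXO6: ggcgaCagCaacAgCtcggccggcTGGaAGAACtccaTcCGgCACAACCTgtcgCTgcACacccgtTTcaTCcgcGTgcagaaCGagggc

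Of these 35 bases 14 lie within the 21 bases of the core itself. The FOXS1 run lies in its only exon at chr20:31845294-31845383 on the minus strand and the FOXL1 run in its only exon at chr16:86578976-86579065 on the plus strand. In FOXO4, FOXO6 and FOXP4 an intron interrupts the stretch, for example between exons 1 and 2 of FOXO4. Over the 90 bases, FOXL1 had 87.8% in common with FOXS1, FOXO6 64.4%, FOXO4 62.2% and FOXP4 58.9%. FOXC1 had the same share as FOXL1, and its level did not separate the groups.

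In control LX-2 cells the family was led by FOXM1, at a mean of 166.5 FPKM, followed by FOXK2 at 21.9 FPKM, FOXJ2 at 10.7 FPKM and FOXF2 at 8.88 FPKM. FOXM1 alone took 54.9% to 63.5% of the forkhead reads of a library. FOXK2, with its relative FOXK1, is known as a repressor of autophagy genes, FOXJ2 is a widely expressed activator, and FOXF2 is a factor of gut and palate mesenchyme. Of the 26 tested genes 18 had a mean of at least 1 FPKM over the 9 libraries and 8 had less.

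**Figure D1:**
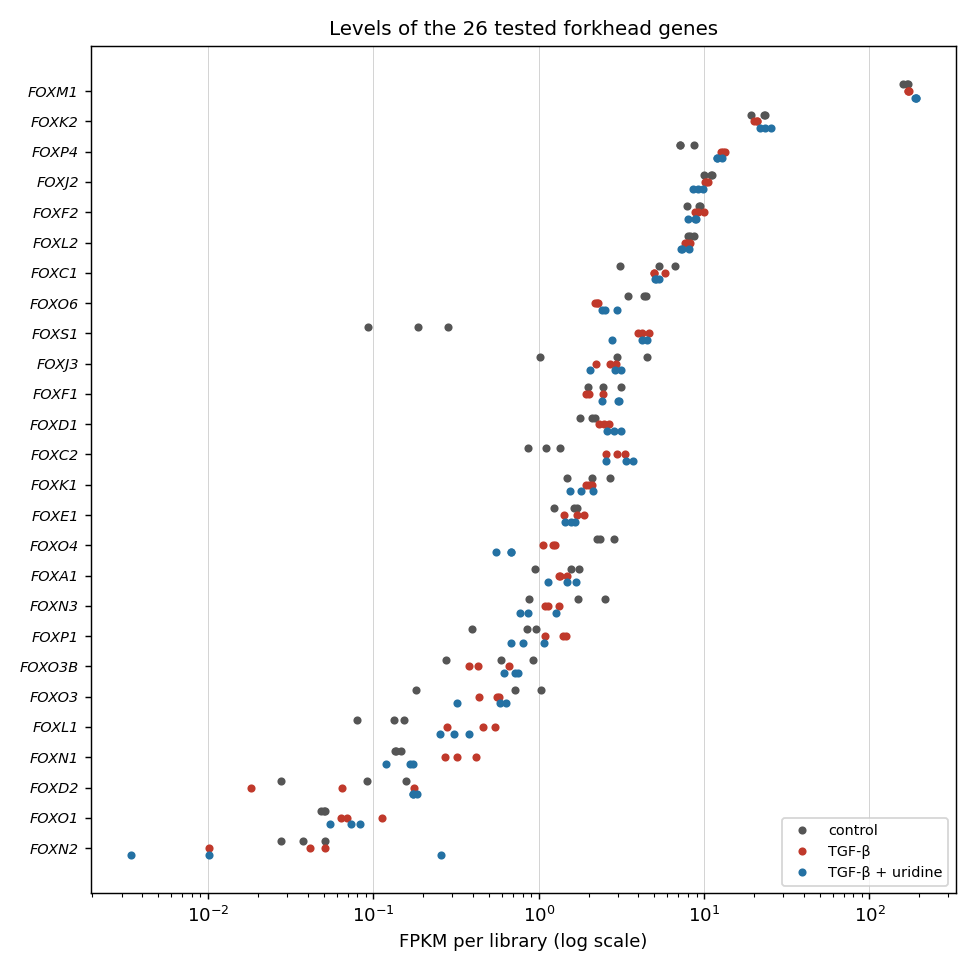
FPKM of the 26 tested forkhead genes in each of the 9 libraries, on a log axis, with 1 point for each library and genes in order of their mean. FOXM1 stands alone near 176.1 FPKM, FOXS1 lies at 0.188 FPKM on average in control libraries and at 4.29 and 3.85 FPKM in the treated groups, and FOXO4 moves the other way.

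The remaining 12 genes were too low to test, among them FOXA3, FOXD4, FOXE3, FOXH1, FOXI1, FOXJ1, FOXN4, FOXP2, FOXP3, FOXQ1 and FOXR2. In 11 of them no library held more than 7 reads, and FOXQ1 reached 15, while 5 had reads in 1 library only. A count of 0 in these libraries allows a level of up to 0.0629 to 0.0889 CPM (counts scaled to the library total), for counting error only. Reads of FOXD4, which has near-identical copies, and of FOXO3B, a processed pseudogene copied from FOXO3, cannot be assigned with certainty. Of the tested genes, FOXS1 passed the CPM limit of the filter in 1 control and in all treated libraries, and FOXD2 and FOXN2 also passed in only part of the libraries, so the tested genes are not the family as a whole.

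With TGF-β, FOXC2 and FOXL1 rose and FOXO4 fell, and FOXS1 was higher in every treated library than in any control library. By edgeR's quasi-likelihood test with Benjamini-Hochberg adjustment over all tested genes, 2 of the 25 tested forkhead genes other than FOXS1 were called higher at an adjusted p under 0.05 (FOXC2 and FOXL1), beside 2.42% of all tested genes, and 1 was called lower (FOXO4), beside 0.964%. FOXS1 is left out of these counts, since the family was chosen for its rise. Of the same 25 genes, an unadjusted p under 0.05 was reached by FOXC2, FOXL1, FOXN1, FOXO4, FOXO6, FOXP1 and FOXP4, beside 12.1% of all tested genes. The median log2 difference of the 26 was -0.01 and that of all tested genes -0.05. In bulk RNA, fewer cells that express a gene and less RNA of it per cell cannot be told apart.

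FOXS1, a gene of 1 exon at chr20:31844301-31845619 (GRCh38, minus strand), had 5, 15 and 10 reads in the control libraries. It had 214, 250 and 224 reads with TGF-β and 150, 242 and 226 reads with TGF-β + uridine. The control values lie just above the limit of 3 reads, and no treated library came near them. In FPKM, which allows comparison between genes, FOXS1 ranked 21 of 38 in control cells and 8 in both treated groups. The difference was 23.1-fold between TGF-β and control (log2 4.53, SE 0.37) and 20.4-fold between TGF-β + uridine and control (log2 4.35, SE 0.37).

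Normalized CPM of FOXS1 was 5.63 ± 0.367 (SD, n = 3) with TGF-β and 4.97 ± 1.42 (SD, n = 3) with TGF-β + uridine, and the groups overlapped. The log2 difference was -0.18 (SE 0.30, 95% interval -0.87 to 0.51, edgeR adjusted p = 0.985), so that a change with uridine was not detectable and a fall of less than 0.87 on the log2 scale is within the interval. In the uridine group U1 was the lowest at 3.49 CPM and U2 the highest at 6.32 CPM, with U3 between them at 5.11 CPM.

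FOXC2, a factor of lymphatic and vascular development also known from epithelial-mesenchymal transition, lies at chr16:86566829-86569728 (plus strand, 1 exon). It had 3.05, 3.76 and 2.79 CPM in control libraries, 8.93, 7.41 and 9.57 CPM with TGF-β and 9.42, 11.6 and 6.89 CPM with TGF-β + uridine. All treated libraries lay above all control libraries, and both treated groups overlapped. FOXC2 was 2.70-fold higher with TGF-β than in control (log2 1.43, SE 0.24, edgeR adjusted p = 0.0109) and 2.90-fold higher with TGF-β + uridine (log2 1.54, SE 0.24, edgeR adjusted p = 0.00706). Uridine on top of TGF-β gave a log2 difference of 0.11 (95% interval -0.42 to 0.63, edgeR adjusted p = 0.993). The TGF-β call was lost without T1, without T3 and without both C1 and C3, with edgeR adjusted p up to 0.0931.

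FOXL1, known from the mesenchymal cells beneath the gut epithelium and from portal fibroblasts, lies 6.64 kb downstream of FOXC2 at chr16:86576368-86582160 (plus strand). Its levels were low, at 0.80, 0.381 and 0.650 CPM in control libraries, 1.41, 2.28 and 2.65 CPM with TGF-β and 1.79, 1.62 and 1.15 CPM with TGF-β + uridine. The control libraries lay below all treated libraries, which stood on 51 to 109 reads. FOXL1 was 3.46-fold higher with TGF-β than in control (log2 1.79, SE 0.38, edgeR adjusted p = 0.0365). With TGF-β + uridine the difference from control was log2 1.32 (SE 0.38, edgeR adjusted p = 0.089), and between the treated groups -0.47 (95% interval -1.29 to 0.34, edgeR adjusted p = 0.833). The TGF-β call held in 11 of 19 alternatives, and it was lost with the replicate block, when only those 2 groups entered the fit, and without C2, C3, T2, T3, U1 or U2, with edgeR adjusted p up to 0.164.

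FOXF1, a regulator of mesenchyme in lung, gut and liver, starts the same cluster on chromosome 16, 51.4 kb before FOXC2. It had 8.47, 8.31 and 9.61 CPM in control libraries, 7.04, 7.09 and 8.53 CPM with TGF-β and 10.2, 9.17 and 9.98 CPM with TGF-β + uridine. The TGF-β + uridine libraries lay above the TGF-β libraries without overlap, while control overlapped both. Its log2 difference was -0.22 (edgeR adjusted p = 0.767) with TGF-β and 0.37 (95% interval 0.02 to 0.72, edgeR adjusted p = 0.532) with uridine, neither past the threshold. FENDRR, the noncoding RNA transcribed away from FOXF1, was not called by edgeR in any comparison. FOXC2-AS1, which overlaps FOXC2 on the other strand, had 24 to 48 reads in control, 48 to 61 with TGF-β and 87 to 143 with TGF-β + uridine, and since the strand setting of the counting is not given, reads of this pair cannot be told apart. The second cluster, FOXQ1, FOXF2 and FOXC1 on chromosome 6, had no called gene: FOXF2 differed by log2 0.07 and FOXC1 by 0.12 with TGF-β, with edgeR adjusted p of 0.985 and 0.97.

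FOXO4, which acts on stress and metabolic genes when AKT signalling is low, lies at chrX:71096197-71103535 (plus strand). It had 11.1, 8.48 and 9.61 CPM in control libraries, 4.88, 4.16 and 4.85 CPM with TGF-β and 2.54, 2.33 and 2.44 CPM with TGF-β + uridine. The 3 groups formed 3 steps without overlap. FOXO4 was 2.10-fold lower with TGF-β than in control (log2 -1.07, SE 0.18, edgeR adjusted p = 0.0114) and 3.99-fold lower with TGF-β + uridine (log2 -2.0, SE 0.18, edgeR adjusted p = 4.89e-04). The further step with uridine was log2 -0.93 (SE 0.18, 95% interval -1.34 to -0.52), with an unadjusted edgeR p of 6.46e-04 that did not pass after adjustment (0.169). The combined call held in 20 of 20 alternatives, and the TGF-β call was lost without T1, without T2, without T3, without both C1 and C3, and when only those 2 groups entered the fit, with edgeR adjusted p up to 0.102. The uridine step passed in 7 of 20 alternatives, among them without C1 and without both C1 and C3, with adjusted p from 6.63e-04 to 0.739 over DESeq2, limma and edgeR.

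**Figure D2:**
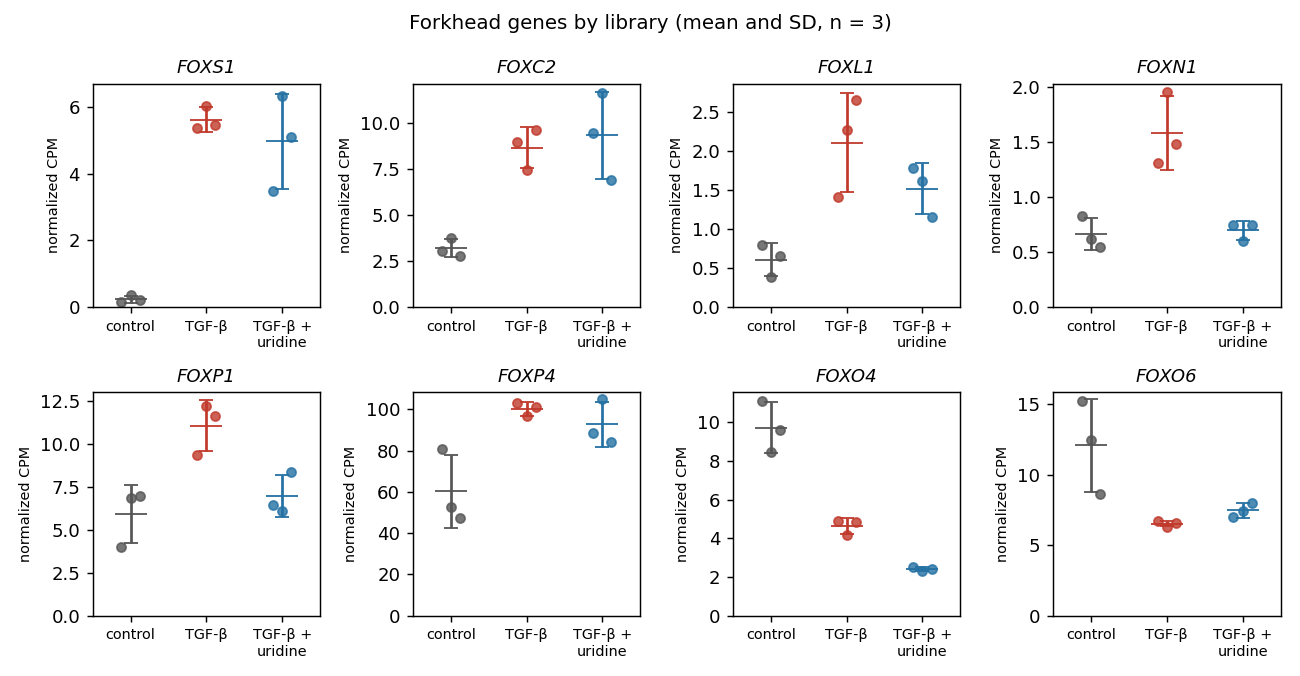
Normalized CPM of 8 forkhead genes in each library, with 1 point for each library and the mean and SD of each group (n = 3), on linear axes from 0. FOXS1, FOXC2 and FOXL1 lie higher in both treated groups, FOXN1 and FOXP1 are highest with TGF-β alone, and FOXO4 steps down from control to TGF-β to TGF-β + uridine.

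FOXO6, a FOXO member that stays mostly in the nucleus and is best known from the brain, had 15.2, 12.4 and 8.62 CPM in control libraries, 6.72, 6.32 and 6.58 CPM with TGF-β and 6.98, 7.45 and 7.97 CPM with TGF-β + uridine. Every treated library was below every control library, but the control libraries differed widely among themselves. The log2 difference from control was -0.89 (SE 0.21, edgeR adjusted p = 0.0623) with TGF-β and -0.69 (SE 0.21, edgeR adjusted p = 0.111) with TGF-β + uridine, which missed the threshold. FOXO1 and FOXO3, the most studied FOXO genes, were low in FPKM, with mean levels of 0.0498 and 0.646 FPKM in control. FPKM divides by gene length, which the deposited values imply to be 14591 bases for FOXO3 and 3897 for FOXO4. In CPM the control means were 0.536 for FOXO1, 8.81 for FOXO3 and 9.73 for FOXO4. FOXO1 differed by log2 0.71 (edgeR adjusted p = 0.45) with TGF-β and FOXO3 by -0.20 (edgeR adjusted p = 0.996). FOXO3 ranged from 3.2 to 13.1 CPM within the control group, more than it differed between groups.

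Of 22 tested FOXO target genes, 3 rose with TGF-β (IRS2, FBXO32 and GABARAPL1) and 1 fell (CITED2), beside 2.42% and 0.964% of all tested genes. In TGF-β + uridine against control edgeR called 0 higher and 1 lower (CITED2), beside 2.89% and 2.44%. DESeq2 called 3 higher and 1 lower of the 22 with TGF-β, and 2 higher and 4 lower in the combined comparison. limma called 1 lower with TGF-β and 2 lower in the combined comparison, and 0 higher in both. With uridine edgeR called 0, with 5 at an unadjusted p under 0.05, beside 8.79% of all tested genes. There DESeq2 called 3 lower and limma 1 lower. The DESeq2 shares of all tested genes are given in the last section, and those of limma are not given here. The median log2 difference of the list was -0.10 with TGF-β, -0.27 with uridine and -0.32 in the combined comparison, beside -0.05, 0.02 and -0.01 for all tested genes. FBXO32, a ubiquitin ligase of muscle atrophy, rose by log2 2.09 (edgeR adjusted p = 0.048) and IRS2, an insulin receptor adaptor, by 1.26 (edgeR adjusted p = 0.0168). CITED2, a transcriptional co-regulator, was lower by log2 -1.05 with TGF-β (edgeR adjusted p = 0.00287) and -1.53 with TGF-β + uridine (edgeR adjusted p = 3.75e-04). Of 24 tested FOXO regulators and partners, among them AKT1, SGK1 and the 14-3-3 genes, 0 were called by edgeR with TGF-β or uridine. An unadjusted p under 0.05 was found for 2 and 3 of them, beside 12.1% and 8.79% of all tested genes. DESeq2 called 1 higher and 1 lower with TGF-β and 2 lower with uridine, and limma called 0. SMAD3, a carrier of the TGF-β signal and FOXO partner, was lower in TGF-β + uridine than in control (log2 -0.50, edgeR adjusted p = 0.0384), where DESeq2 called 2 of the 24 lower and limma 0.

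The RefSeq table of promoters (GRCh38.p14) held 28 of the 38 forkhead genes, and the 250 bases before the start are shown for FOXO4 and FOXO6, since these were the forkhead genes with the lowest log2 differences with TGF-β. Capitals mark the GC box GGGCGG on either strand (CCGCCC). The FOXO4 run is chrX:71095601-71095850 and the FOXO6 run chr1:41361184-41361433, both on the plus strand.
FOXO4: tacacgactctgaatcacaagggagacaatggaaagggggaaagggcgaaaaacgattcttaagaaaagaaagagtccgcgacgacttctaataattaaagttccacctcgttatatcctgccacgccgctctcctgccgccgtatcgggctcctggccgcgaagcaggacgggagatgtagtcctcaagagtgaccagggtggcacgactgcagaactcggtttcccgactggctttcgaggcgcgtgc
FOXO6: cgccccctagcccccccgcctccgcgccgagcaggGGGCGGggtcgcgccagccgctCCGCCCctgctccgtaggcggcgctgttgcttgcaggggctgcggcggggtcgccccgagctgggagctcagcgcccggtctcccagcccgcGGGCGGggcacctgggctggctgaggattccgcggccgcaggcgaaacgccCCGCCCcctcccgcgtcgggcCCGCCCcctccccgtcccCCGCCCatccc

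The FOXO6 window held 6 GC boxes and the FOXO4 window 0. The 28 genes had 39 windows, since FOXJ3, FOXO3, FOXP1 and FOXP2 have several start sites in the table. Of the 39 windows 25 held a GC box, beside 42.6% of 35116 windows of the same length. The median GC content was 68.4% in the 39 windows and 58.0% in all windows, and the motif counts were not adjusted for it. The SMAD-binding letters CAGAC or GTCTG stood in 12 of the 39, beside 38.0% of all windows, and the forkhead core GTAAACA or TGTTTAC in 1, beside 2.98%. The AP-1 site TGACTCA or TGAGTCA stood in 1 of the 39 windows, beside 4.20%, and the cell cycle element TTTGAA or TTCAAA in 5, beside 13.3%. Neither the FOXO4 nor the FOXO6 window held any of these last 4 motifs. A match of letters is a description and not a binding site.

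FOXN1, the regulator of thymic epithelium and of hair follicle keratinocytes, was low, at 0.83, 0.619 and 0.545 CPM in control libraries. It had 1.31, 1.96 and 1.49 CPM with TGF-β and 0.744, 0.601 and 0.745 CPM with TGF-β + uridine, on 23 to 81 reads. The TGF-β libraries lay above all others, and control and TGF-β + uridine overlapped. The log2 difference was 1.26 (SE 0.30, edgeR adjusted p = 0.0604) for TGF-β against control and -1.18 (SE 0.30, 95% interval -1.85 to -0.51, edgeR adjusted p = 0.274) for uridine, and neither passed the threshold. Both comparisons share the TGF-β libraries.

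FOXP1 and FOXP4 are repressors known from lung, lymphoid and neural development. FOXP1 had 4.0, 6.86 and 6.94 CPM in control libraries, 9.36, 12.2 and 11.6 CPM with TGF-β and 6.47, 6.06 and 8.34 CPM with TGF-β + uridine. As for FOXN1, the TGF-β libraries were the highest without overlap. The log2 difference was 0.90 (SE 0.25, edgeR adjusted p = 0.111) with TGF-β and -0.67 (95% interval -1.23 to -0.10, edgeR adjusted p = 0.471) with uridine.

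FOXP4 ranked 3 of 38 by mean FPKM over the 9 libraries, though 6 in control, with 80.5, 52.6 and 47.4 CPM in control libraries, 102.9, 96.6 and 101.0 CPM with TGF-β and 88.5, 105.0 and 84.3 CPM with TGF-β + uridine. Every treated library exceeded every control library, with C1 closest. The log2 difference from control was 0.74 (SE 0.19, edgeR adjusted p = 0.0823) with TGF-β and 0.62 (SE 0.19, edgeR adjusted p = 0.111) with TGF-β + uridine, which did not pass. FOXP4-AS1, a noncoding gene at chr6:41494853-41548621 on the minus strand, overlaps the start of FOXP4 (chr6:41546426-41602384, plus strand), so that reads of the overlap cannot be told apart. It had 39 to 75 reads in control, 58 to 76 with TGF-β and 155 to 198 with TGF-β + uridine. FOXP4-AS1 was higher by log2 1.69 in TGF-β + uridine against control (edgeR adjusted p = 0.00749), and the difference with uridine on top of TGF-β was 1.30 (edgeR adjusted p = 0.181). Of 8 tested genes that adjoin or copy a forkhead gene, edgeR called FOXP4-AS1 alone in that comparison, beside 2.89% of all tested genes, while DESeq2 and limma each called 2 higher. With uridine edgeR called 0 of the 8, with 3 at an unadjusted p under 0.05, beside 8.79% of all tested genes. DESeq2 and limma each called 1 higher there.

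FOXM1 had 783.0, 606.8 and 512.1 CPM in control libraries, 660.6, 639.3 and 642.9 CPM with TGF-β and 689.1, 762.0 and 647.2 CPM with TGF-β + uridine. In normalized CPM the 3 groups overlapped, and the control libraries spread the widest. In FPKM, scaled to the library total without TMM factors, the TGF-β + uridine libraries (187.6 to 191.8) lay above the TGF-β (170.8 to 173.5) and control libraries (158.8 to 172.2), and limma called FOXM1 higher in the combined comparison (log2 0.19, adjusted p = 0.0204). The log2 difference was 0.03 (95% interval -0.31 to 0.37, edgeR adjusted p = 0.998) with TGF-β and 0.11 (95% interval -0.23 to 0.45, edgeR adjusted p = 0.964) with uridine. FOXM1 was called higher with uridine in 2 of 20 alternatives, both with the GC slope as covariate (lowest edgeR adjusted p = 0.0176). In the combined comparison it was called in 3 of 20, by limma and in the same fits. Of 21 tested FOXM1 target genes of mitosis, such as CCNB1 and PLK1, 0 were called in any comparison by edgeR, with median log2 differences of -0.05 with TGF-β, 0.08 with uridine and 0.07 in the combined comparison. An unadjusted p under 0.05 was found for 0, 1 and 1 of them, beside 12.1%, 8.79% and 17.6% of all tested genes. DESeq2 called 0 in each, and limma called 1 lower in the combined comparison. Of 10 partners of FOXM1 in the MuvB complexes, such as MYBL2, edgeR and DESeq2 also called 0, while 1 had an unadjusted p under 0.05 with uridine and limma called 1 higher there and in the combined comparison.

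FOXK2 had 123.0, 116.2 and 106.3 CPM in control libraries, 109.0, 109.6 and 108.9 CPM with TGF-β and 127.8, 123.3 and 112.7 CPM with TGF-β + uridine, a log2 difference of 0.15 with uridine (95% interval -0.06 to 0.36, edgeR adjusted p = 0.749). FOXJ2 had 72.5, 63.0 and 57.1 CPM, then 62.5, 60.5 and 62.6 CPM, then 56.0, 54.3 and 50.3 CPM in the same order of groups. The TGF-β + uridine libraries of FOXJ2 were the lowest, with a log2 difference from control of -0.26 (edgeR adjusted p = 0.244). FOXN3, a repressor tied to the DNA damage checkpoint, had 8.80, 13.8 and 17.9 CPM, then 9.23, 10.9 and 9.35 CPM, then 6.86, 6.82 and 9.69 CPM. Its control libraries spanned more than the distance between groups, and the log2 difference of TGF-β + uridine from control was -0.79 (edgeR adjusted p = 0.147).

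Of the remaining tested genes, FOXA1, FOXC1, FOXD1, FOXE1, FOXF2, FOXJ3, FOXK1 and FOXL2 differed by at most log2 0.27 with TGF-β and 0.19 in size with uridine. FOXA1, a pioneer factor of endoderm that includes hepatocytes, stood at 1.42, 1.38 and 1.44 FPKM in the 3 groups. FOXN2 had a log2 difference of 1.28 with uridine that came from U3, with 75 reads against 3 and 1 in U1 and U2 (SE 1.21, edgeR adjusted p = 0.891). FOXD2, also low, differed by log2 0.99 with uridine (SE 0.72, edgeR adjusted p = 0.82), and FOXO3B by 0.47 (SE 0.34, edgeR adjusted p = 0.814).

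With uridine added to TGF-β, 0 forkhead genes were called higher and 0 lower by edgeR, beside 0% and 0.0448% of all tested genes. An unadjusted p under 0.05 was found for 4 of the 26 (FOXF1, FOXN1, FOXO4 and FOXP1), beside 8.79% of all tested genes. The TGF-β + uridine libraries lay above the TGF-β libraries without overlap in 4 forkhead genes (FOXF1, FOXK2, FOXO3B and FOXO6), beside 12.8% of all tested genes, and below in 5 (FOXJ2, FOXK1, FOXN1, FOXO4 and FOXP1), beside 12.8%. An exact permutation test of 3 against 3 libraries cannot give a p below 0.1, two-sided, and gave 0.1 for each of these. DESeq2 called 2 lower (FOXN1 and FOXO4) and 0 higher, and limma 1 lower (FOXO4) and 0 higher. With each library's GC slope in the edgeR fit, 3 were called higher and 5 lower, beside 10.0% and 9.12% of all tested genes. The higher were FOXF1, FOXK2 and FOXM1, and the lower were FOXJ2, FOXN1, FOXN3, FOXO4 and FOXP1.

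In TGF-β + uridine against control, 1 of the 25 forkhead genes other than FOXS1 was called higher by edgeR (FOXC2), beside 2.89% of all tested genes, and 1 lower (FOXO4), beside 2.44%. Without both C1 and C3, and when only those 2 groups entered the fit, FOXC2 was not called, with edgeR adjusted p up to 0.056. This comparison shares its libraries with both others, so the 3 are given side by side only. The median log2 difference of the 26 was 0.08, and that of all tested genes -0.01.

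**Figure D3:**
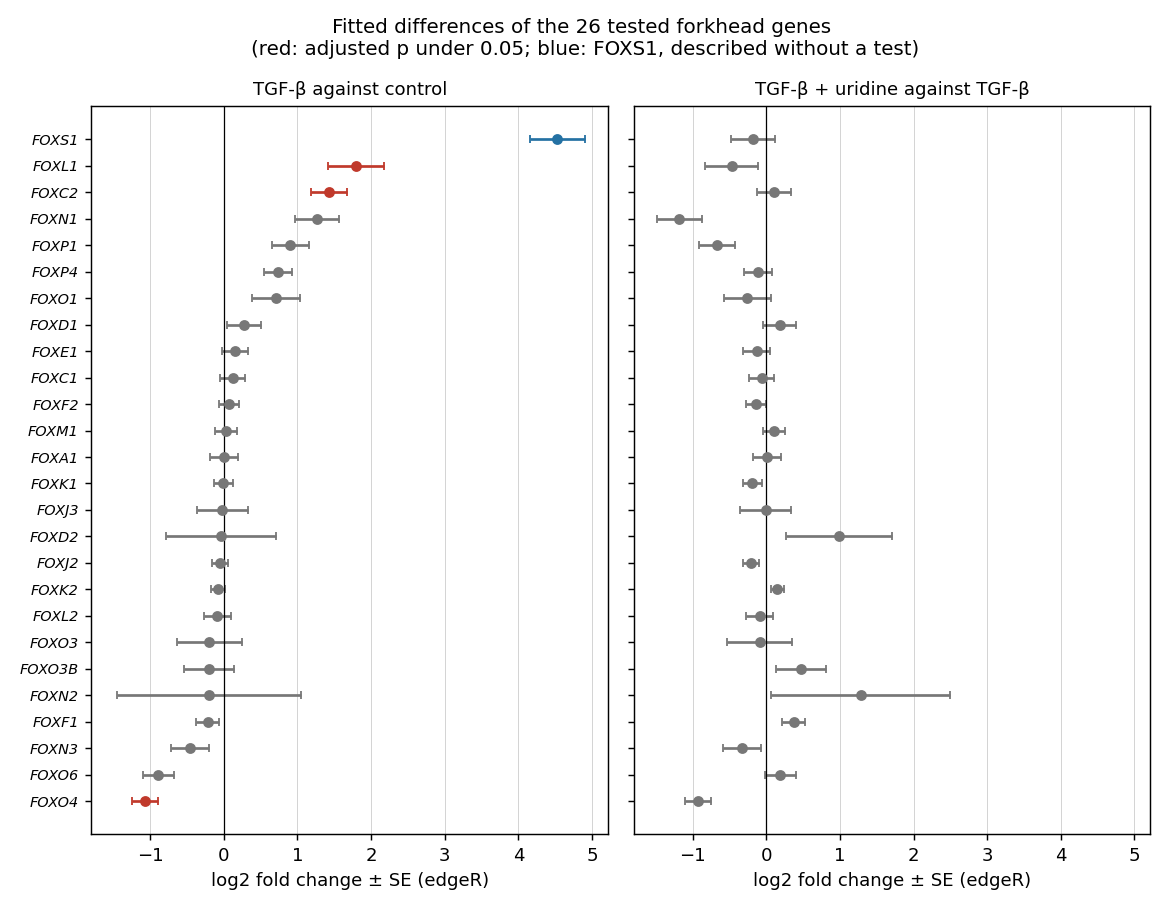
Fitted log2 fold changes with their SE for the 26 tested forkhead genes, TGF-β against control on the left and TGF-β + uridine against TGF-β on the right, in the same order of genes. FOXL1 and FOXC2 (log2 1.79 and 1.43) and FOXO4 (-1.07) are in red at an adjusted p under 0.05 by edgeR, FOXS1 (4.53) is in blue as its values are given as a description, and the right panel holds no red point.

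Of 11 listed neighbours of FOXS1 on chromosome 20, 7 were tested, and MYLK2 and CCM2L were called higher with TGF-β by edgeR, beside 2.42% of all tested genes, and DESeq2 and limma each called 2 higher. With uridine edgeR and DESeq2 called 0 and limma 1 higher. The share of all tested genes is not given for limma. MYLK2, a myosin light chain kinase whose gene ends 9.6 kb from FOXS1, had 9 to 22 reads in control, 62 to 104 with TGF-β and 96 to 113 with TGF-β + uridine (log2 2.52 with TGF-β, SE 0.36, edgeR adjusted p = 0.00512). CCM2L, an endothelial adaptor gene 164.8 kb away, had 1 to 12 reads in control, 88 to 119 with TGF-β and 138 to 153 with TGF-β + uridine (log2 3.97, SE 0.63, edgeR adjusted p = 0.00908). CCM2L passed the CPM limit of the filter in 1 control and in all treated libraries, so its call is not independent of the filter. DUSP15, the nearest gene at 2.0 kb, had at most 8 reads and was not tested, and TPX2, a spindle gene beyond MYLK2, differed by log2 0.21 (edgeR adjusted p = 0.896).

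Of 16 pericyte and mural cell markers 13 were listed and 10 tested. KCNJ8 and HIGD1B were not listed, and ABCC9 had 1 read in C3 and was not tested. With TGF-β edgeR called 6 of the 10 higher (PDGFRB, MCAM, ACTA2, TAGLN, CNN1 and ANPEP), beside 2.42% of all tested genes. DESeq2 called 6 higher there and limma 5. In these markers with uridine edgeR and DESeq2 called 0, and limma called 1 lower. An unadjusted p under 0.05 was found for 1, beside 8.79% of all tested genes. The largest were CNN1 (log2 2.91, edgeR adjusted p = 0.0157), ACTA2 (1.58, edgeR adjusted p = 0.0106) and TAGLN (1.46, edgeR adjusted p = 0.00512), all genes of the contractile apparatus. CNN1 had 1, 4 and 4 reads in control and 25, 27 and 16 with TGF-β. It passed the CPM limit of the filter in 0 control libraries, so its call is not independent of the filter. Of 15 tested TGF-β response genes edgeR called 7 higher with TGF-β, beside 2.42% of all tested genes, among them IL11 (log2 4.77, edgeR adjusted p = 0.0052) and PMEPA1 (2.59, edgeR adjusted p = 3.5e-06), and DESeq2 and limma each called 10 higher. In TGF-β + uridine against control all 3 tools called 11 higher, beside 2.89% of all tested genes by edgeR. With uridine edgeR called 0 of the 15, with 3 at an unadjusted p under 0.05, beside 8.79% of all tested genes. DESeq2 called 2 lower there, and limma called 1 higher and 1 lower. The DESeq2 shares of all tested genes are given in the last section. Those of limma are not given, so the limma counts of these lists are not set against other genes.

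Over the 9 libraries the genes with the log2 CPM pattern most like FOXS1 were TFPI2 (Pearson r = 0.996), KRT6A (0.994), LOC105374715 (0.989), CHST3 (0.988) and CHST11 (0.987). Among forkhead genes FOXC2 had the highest r, 0.95, followed by FOXL1 at 0.83 and FOXP4 at 0.81, and FOXO4 and FOXO6 had the lowest, both -0.86. These values mostly describe the step between control and treated libraries, since the 9 points form groups, and they carry no p.

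The GC slope of the libraries moved with some forkhead genes. Pearson r of log2 CPM with the slope over the 9 libraries was -0.96 for FOXJ3, -0.95 for FOXO3, 0.92 for FOXL2 and 0.87 for FOXM1, and -0.11 for FOXS1, 0.05 for FOXC2, 0.10 for FOXL1 and 0.15 for FOXO4. C1 and C3, at the ends of the slope, were also the lowest and highest libraries of FOXO3 (3.2 and 13.1 CPM) and of FOXJ3 (304 and 1356 reads). An alternative edgeR fit took the slope as a covariate, and its calls are given with the uridine comparison and in the last section. The part of the slope in each gene's values was not tested.

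**Figure D4:**
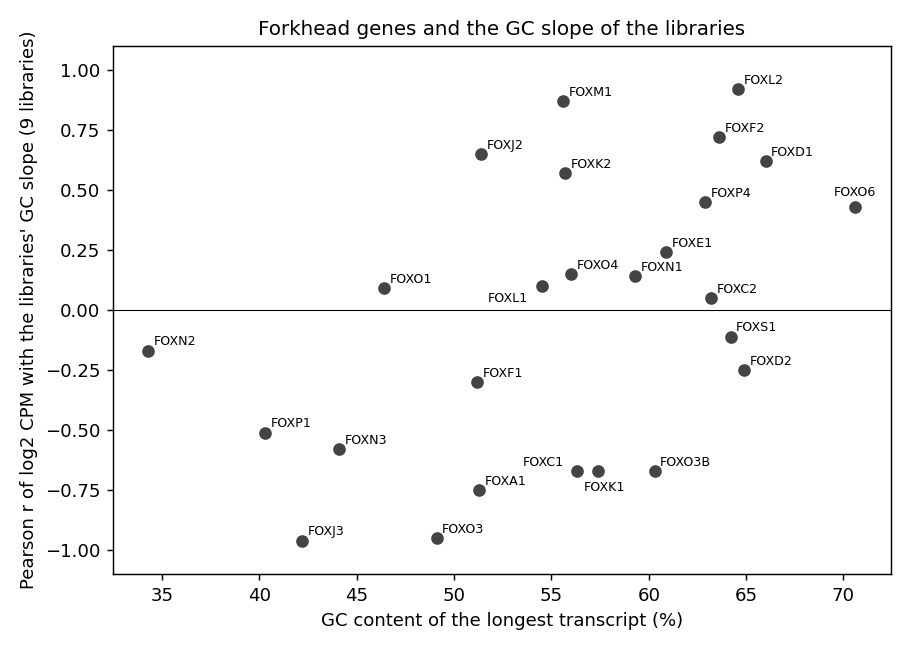
Pearson r of each tested forkhead gene's log2 CPM with the GC slope of the 9 libraries, plotted against the GC content of its longest transcript in percent, with 1 point for each gene. FOXJ3 and FOXO3 are near -1, FOXL2 and FOXM1 near the top, and FOXS1, FOXC2, FOXL1 and FOXO4 lie close to 0.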

How the data were processed

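RNA of 9 LX-2 libraries was analysed, 3 each of control, TGF-β and TGF-β + uridine cells, grouped by their labels. The authors deposited a table of counts, whole reads per gene symbol and not normalized, and a table of FPKM, in which every count is scaled by the reads of its library and by 1 gene length, identical in all libraries. The submitters' processing notes name fastp, HISAT2, HTSeq, R 3.2.0 and the build GRCh38.p13, and the annotation and strand setting are not given in the sources used here. Columns of other samples numbered 0.

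Counts were fitted in R 4.3.3 with edgeR 4.0.16 over all 9 libraries (filterByExpr with a minimum count of 10, TMM, glmQLFit, glmQLFTest), with p-values adjusted by the Benjamini-Hochberg method over 13384 genes. The common biological coefficient of variation was 0.289. Normalized CPM uses the TMM factors (0.820 to 1.16). Alternatives used DESeq2 1.42.0, limma 3.58.1 on log2(FPKM + 0.1), other normalizations and filters, a replicate block, the GC slope as a covariate (GC known for 95.8% of tested genes) and each library left out. The steps were first tested on simulated data.

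Values in every library are given for FOXS1, for forkhead genes with an unadjusted p under 0.05 in any comparison and for the 3 with the highest mean FPKM. From the other lists, up to 3 genes with the largest called difference are named. Counts called by limma are given without its share of all tested genes, so they do not set any list apart from other genes. Genes outside this rule, such as CCNB1, PLK1, MYBL2, AKT1, SGK1 and TPX2, are named as examples. The forkhead genes and the lists were chosen with earlier results of these data known. Coordinates and coding frames come from GENCODE on GRCh38, and promoters from RefSeq. Some results within these rules are not reported here.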

Additional observations from a re-analysis of the deposited data

How the results depend on the processing

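The counts of called forkhead genes moved with the settings, and no called difference of a forkhead gene changed direction. Fold changes were followed across settings only for the forkhead genes whose values are given in every library. Among these, differences that were not called changed sign in some alternatives for FOXC2 and FOXS1 with uridine, FOXJ2 and FOXM1 with TGF-β, and FOXN1 and FOXP1 in the combined comparison. In the order higher and lower, the main counts were 3 and 1 with TGF-β, 0 and 0 with uridine and 2 and 1 in the combined comparison. Here the higher counts against control include FOXS1 wherever it was tested. Its rise was known when the family was picked, so these higher counts are not read against the shares of all tested genes. DESeq2 called 6 and 2 with TGF-β, 0 and 2 with uridine and 3 and 3 in the combined comparison, beside 3.95% and 2.48%, 0.725% and 1.05%, and 4.77% and 4.89% of all tested genes. With the GC slope as covariate the counts were 6 and 3, 3 and 5, and 6 and 5, beside 11.6% and 8.67%, 10.0% and 9.12%, and 17.8% and 13.3%. limma called 3 and 2 with TGF-β, 0 and 1 with uridine and 5 and 2 in the combined comparison. For limma and the settings that follow, the shares of all tested genes are not given here. Those counts describe the settings and do not set the family apart from other genes. Upper-quartile normalization called 2 lower with TGF-β. With only the 2 groups compared, 0 were called lower with TGF-β and FOXL1 was not called, 1 was lower with uridine and 1 higher in the combined comparison. With at least 10 counts in every library, which leaves out FOXS1 from the test, 1 was called higher in the combined comparison. Without C1 and C3, an alternative chosen after seeing the data that leaves 1 control library assumed to vary like the others, 1 was called lower with uridine (FOXO4). The TGF-β counts were then 3 and 1, in which FOXC2 and FOXO4 lost their calls and FOXP4 and FOXO6 passed, and the combined counts were 2 and 1, in which FOXC2 was lost and FOXP4 passed.

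Replicate numbers did not pair the samples: correlations of same-numbered deviations ran from -0.21 to 0.56, and 3 of 9 libraries correlated best with their own number. With the replicate block the TGF-β counts were 2 and 1, as FOXL1 was lost, and no forkhead gene was called with uridine. With both the replicate block and the GC slope, the counts were 6 and 3, 2 and 5, and 6 and 5, without the shares of all tested genes.

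Leaving out 1 library at a time gave 1 to 5 higher and 0 to 2 lower with TGF-β, 0 and 0 to 1 with uridine, and 2 to 4 and 1 to 2 in the combined comparison. The TGF-β count of higher genes was 1 without T3 and 5 without C1. The count of lower genes was 0 without T1, T2 or T3 and 2 without C1 or C3. Without C1 the uridine count of lower genes was 1 (FOXO4), and the combined counts were 4 and 2. Without C3 the combined count of lower genes was 2. The cause of these changes was not tested. The control level of FOXS1 rests on few reads (5 to 15) and is limited by depth. FOXN2 had 75 reads in U3 and 1 to 15 in every other library, at similar library totals. The mitosis genes ASPM and CENPF were also far higher in U3. ASPM had 34, 36 and 597 reads in U1, U2 and U3, and CENPF had 179, 131 and 1739. Not all mitosis genes did so, as CCNB1 had 18880, 18208 and 19056 reads. The cause of the U3 values was not tested.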
